A study of Mus musculus with 26 samples.

Results

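EZH2, the methyltransferase that writes trimethylation of histone H3 lysine 27, and H3K27me3, the mark it leaves, were compared across the genome of wild-type (WT) mouse embryonic fibroblasts (MEFs). Members of the comparison were CUT&RUN peaks of either target that overlapped, by at least 1 bp, a peak of the other replicate of the same target. This kept 15588 of 22301 EZH2 peaks in replicate 1 and 15706 of 18341 in replicate 2. Of the H3K27me3 peaks, 28639 of 35973 were kept in replicate 1 and 25676 of 38773 in replicate 2. The 4 lists held 115510 of the 272147 peaks in all 16 peak lists of the series, and the 4 libraries were 4 of its 26 samples. The rule used neither a difference between EZH2 and H3K27me3 nor RNA. It did act on width and place. Peaks that it removed were shorter and less often near a start site than those kept, as given below.

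The study asked how the chromatin remodeler ATRX and its RNA-binding region (RBR) bear on the targeting of the Polycomb repressive complex PRC2 in MEFs. WT here is the unedited, untreated parental line, which the study describes as female and expressing Xist, and no deletion or treatment is shared by the 4 libraries. All of them come from that 1 line, grown in medium with calf serum. The labels give 2 replicates per target, and the study calls its replicates biological, so the p-values below measure the spread between these libraries only. Kept peaks of the 2 replicates were chosen to overlap each other, so the 2 values of a target are not independent. Other libraries of the series, used at the end, are WT ATRX CUT&RUN, WT RNA-Seq, and EZH2 and H3K27me3 CUT&RUN of ATRXΔRBR cells (1 CRISPR clone that lacks the RBR) and of ATRX KD cells (ATRX knockdown). The H3K27me3 antibody is named as an Active Motif product in the labels and as a Cell Signaling product in the supplementary antibody list of the study. IgG libraries were not analysed here, so the signal without a specific antibody at these positions is not known.

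PRC2 is built around EZH2 (or its paralog EZH1), EED and SUZ12, and it places methyl groups on H3K27. EED binds H3K27me3 and stimulates the enzyme, by which the mark can spread away from the sites where the complex is recruited, and KDM6A and KDM6B remove it. In mammals PRC2 is known for holding developmental regulators such as the Hox genes silent, and it is recruited mainly to CpG islands. CUT&RUN cuts out the DNA around an antibody-bound protein with a tethered nuclease, and a broad peak is a stretch where the fragments exceed the local background.

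Promoter sequences are printed first, because writer and mark sat on different kinds of DNA. Each is the 250 bases before the RefSeq start of the gene on GRCm38 (mm10), read along the strand of the gene, with CpG dinucleotides in capitals, and none of them holds an annotated exon. Sox14, a neuronal transcription factor gene, had both EZH2 and H3K27me3, and its window (chr9:99876171-99876420, minus strand) holds 23 CpGs. Mdm1, which encodes a centriole protein, had EZH2 without the mark, and its window (chr10:118141537-118141786, plus strand) holds 20 CpGs. Pth1r, the receptor of parathyroid hormone, had H3K27me3 without EZH2, and its window (chr9:110747146-110747395, minus strand) lies within an intron of Myl3 and holds 3 CpGs. Within each class these were the genes with the highest −log10 q of a peak over the TSS whose window was clear of untranslated exons.
Sox14: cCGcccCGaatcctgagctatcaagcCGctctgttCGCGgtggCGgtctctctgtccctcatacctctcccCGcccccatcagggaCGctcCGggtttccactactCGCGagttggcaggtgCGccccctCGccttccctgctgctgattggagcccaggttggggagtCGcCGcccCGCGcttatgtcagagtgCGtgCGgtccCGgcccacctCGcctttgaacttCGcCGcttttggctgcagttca
Mdm1: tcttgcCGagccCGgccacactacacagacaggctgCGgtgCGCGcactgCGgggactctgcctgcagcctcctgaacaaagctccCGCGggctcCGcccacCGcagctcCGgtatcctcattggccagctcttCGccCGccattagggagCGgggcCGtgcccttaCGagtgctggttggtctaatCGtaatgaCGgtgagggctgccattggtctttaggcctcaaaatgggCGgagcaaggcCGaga
Pth1r: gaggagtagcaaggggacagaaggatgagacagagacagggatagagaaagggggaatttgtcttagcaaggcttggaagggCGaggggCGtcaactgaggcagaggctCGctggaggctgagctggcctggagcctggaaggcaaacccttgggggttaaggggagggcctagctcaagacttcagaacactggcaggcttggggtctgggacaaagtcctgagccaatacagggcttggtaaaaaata

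Hoxa13 and Hoxa5, chosen after their values were seen, stand in different parts of the HoxA cluster described below. Hoxa13 (window chr6:52260881-52261130, minus strand, 35 CpGs) lay under both targets and had no RNA. Hoxa5 (window chr6:52204588-52204837, minus strand, 28 CpGs, within introns of Hoxa3, Hoxaas3 and Gm28308) had an EZH2 peak of 909 bp, no mark and 37.8 and 26.5 TPM (the RNA level of a gene per transcript length and library size) in the WT RNA libraries.
Hoxa13: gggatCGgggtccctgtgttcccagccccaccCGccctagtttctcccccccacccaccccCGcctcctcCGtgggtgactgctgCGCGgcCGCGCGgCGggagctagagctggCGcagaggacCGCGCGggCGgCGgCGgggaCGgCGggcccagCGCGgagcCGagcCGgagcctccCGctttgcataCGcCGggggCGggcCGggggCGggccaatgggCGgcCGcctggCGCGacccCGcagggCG
Hoxa5: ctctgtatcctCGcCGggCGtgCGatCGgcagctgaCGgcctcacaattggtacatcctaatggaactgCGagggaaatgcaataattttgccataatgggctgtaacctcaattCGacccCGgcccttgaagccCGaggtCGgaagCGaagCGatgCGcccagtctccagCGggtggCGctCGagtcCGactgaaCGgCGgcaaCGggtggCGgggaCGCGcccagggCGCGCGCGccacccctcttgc

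Away from start sites, the middle 300 bases of the EZH2 peak with the highest −log10 q of each kind, clear of untranslated exons, are shown on the plus strand. The peak that overlapped H3K27me3 (chr15:102742568-102749363, 6796 bp, fold enrichment 17.1) was intergenic, 23.8 kb from the start of Calcoco1, and its middle (chr15:102745816-102746115) holds 2 CpGs. The peak without the mark (chr5:73489731-73491266, 1536 bp, fold enrichment 11.5) lay within Dcun1d4, 9.50 kb from its start, and its intronic middle (chr5:73490349-73490648) holds 17 CpGs.
EZH2 with H3K27me3, distal: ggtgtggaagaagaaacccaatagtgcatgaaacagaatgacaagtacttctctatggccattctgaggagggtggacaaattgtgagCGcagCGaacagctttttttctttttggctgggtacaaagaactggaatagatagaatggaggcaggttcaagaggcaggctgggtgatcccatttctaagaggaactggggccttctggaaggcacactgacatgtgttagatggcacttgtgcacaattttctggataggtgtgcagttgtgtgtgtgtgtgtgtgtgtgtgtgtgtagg
EZH2 without H3K27me3, distal: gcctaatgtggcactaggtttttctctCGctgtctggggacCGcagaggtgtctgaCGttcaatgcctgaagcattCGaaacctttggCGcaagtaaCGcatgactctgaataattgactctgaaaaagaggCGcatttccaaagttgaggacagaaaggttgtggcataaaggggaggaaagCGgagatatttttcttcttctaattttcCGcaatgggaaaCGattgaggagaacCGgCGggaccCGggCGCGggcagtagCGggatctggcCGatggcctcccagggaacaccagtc

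The RNA of the cells was checked against marker lists. Of 18 fibroblast markers, 14 had at least 1 TPM in both WT RNA libraries, led by Vim (5615 and 3903 TPM), S100a4, Col1a2 and Col1a1. Thy1 and Lum were at 0 TPM in both libraries, and Dcn and Postn lay between 0.79 and 1.54 TPM. Of 25 markers of other cell types, 2 had at least 1 TPM in both, Sox2 (43.9 and 37.1 TPM) and Gfap (2.62 and 1.79 TPM). The label of fibroblasts was thus carried by most but not all of the defining markers. The RNA libraries held 13320635 and 11856636 estimated counts, while read depth cannot be read from the peak lists.

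EZH2 peaks were short and H3K27me3 peaks were wide. The median width of kept EZH2 peaks was 616 bp in replicate 1 and 524 bp in replicate 2, and that of kept H3K27me3 peaks was 1668 and 2194.5 bp. The mean over libraries was 570 ± 65.1 bp (SD, n = 2) for EZH2 and 1931 ± 372 bp (SD, n = 2) for H3K27me3, with no overlap between the libraries of the 2 targets. The difference of 1361 bp had an exact two-sided permutation p of 0.333, the smallest that 2 against 2 libraries can give. The shortest kept peak had 146 and 148 bp for EZH2 and 194 and 200 bp for H3K27me3. At the other end, 298 and 292 EZH2 peaks reached 5 kb against 5186 and 6001 H3K27me3 peaks, and 24 and 20 against 555 and 705 reached 20 kb. The middle 50% of widths ran from 359 to 1064 bp and from 308 to 915 bp for EZH2, and from 779 to 3764 bp and from 1014 to 4715 bp for H3K27me3.

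**Figure D1:**
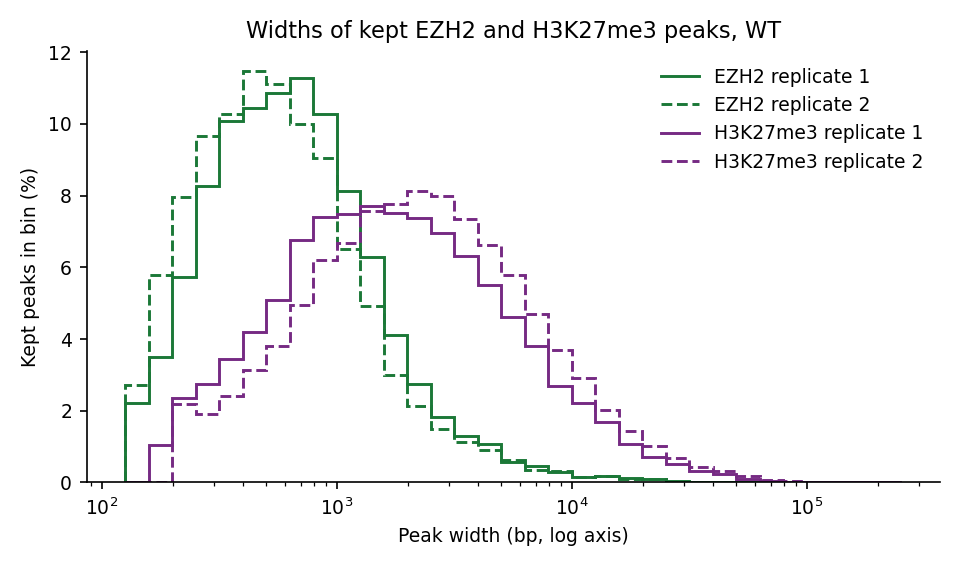
Percent of kept peaks (vertical axis) by peak width in bp (horizontal log axis) for both targets and both replicates, WT. The EZH2 curves peak near their medians of 616 and 524 bp, and the H3K27me3 curves lie to the right, with medians of 1668 and 2194.5 bp and a tail beyond 20 kb.

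In total, kept EZH2 peaks covered 15.8 and 14.4 Mb and kept H3K27me3 peaks 98.3 and 108 Mb, which was 6.21 and 7.53 times as much. Peaks of at least 5 kb held 60.8% and 66.2% of the bases under the mark but 19.3% and 20.7% of those under EZH2. Width depended on how peaks were drawn: the difference in median width was 747 and 801 bp in the full lists of replicate 1 and replicate 2, without the overlap rule, 4071 bp when peaks needed a −log10 q of 2 or more, and 3923 bp when gaps of up to 3 kb were joined. The writer had the shorter median in each of these. The overlap rule removed mainly short peaks, with a median of 260 and 241 bp for EZH2 peaks not kept and 533 and 622 bp for H3K27me3 peaks not kept. At its edge, 59 and 44 kept EZH2 peaks and 541 and 693 kept H3K27me3 peaks were overlapped over less than 10% of their length (median widths 731, 514.5, 858 and 1076 bp). Just outside it, 531 and 370 EZH2 peaks and 2884 and 3228 H3K27me3 peaks lay within 1 kb of a peak of the other replicate (median widths 295, 291, 536 and 640.5 bp).

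Writer and mark also differed in place. Of kept EZH2 peaks, 62.6% and 62.5% came within 2 kb of an annotated transcription start site (TSS, the outermost start of a gene), against 19.2% and 20.7% of H3K27me3 peaks. The means were 62.6% ± 0.0490 for EZH2 and 19.96% ± 1.06 for H3K27me3 (SD, n = 2 each), 42.6 percentage points apart (exact permutation p = 0.333, the smallest possible). These SDs are of mutually selected peaks and do not measure the spread between the full lists. The remaining EZH2 peaks were in gene bodies (22.1% and 22.2%) or intergenic (15.3% in both). For the mark, 37.0% and 36.3% were in gene bodies and 43.8% and 43.0% were intergenic. Counting only the midpoint of each peak, which takes away the advantage of a wide peak, gave a gap of 49.0 points. The gap was 36.0 points at a −log10 q of 2 or more and 34.8 when gaps of up to 3 kb were joined. In the full lists of replicates 1 and 2, without the overlap rule, it was 35.1 and 40.5 points. Among peaks not kept, 28.7% and 28.3% for EZH2 and 10.0% and 10.1% for H3K27me3 came within 2 kb of a TSS.

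Most peaks of either target did not touch the other. Of kept EZH2 peaks, 3313 (21.3%) in replicate 1 and 3379 (21.5%) in replicate 2 overlapped a kept H3K27me3 peak of the same replicate number, and are called shared. The corresponding counts for H3K27me3 were 2515 (8.78%) and 2449 (9.54%). The share was 21.4% ± 0.184 for EZH2 and 9.16% ± 0.535 for the mark (SD, n = 2 each, exact permutation p = 0.333, the smallest possible). In the full lists, without the overlap rule, it was 21.6% and 23.1% for EZH2 and 9.42% and 7.66% for the mark. The gap of 12.2 points between kept peaks depended on peak calling. It narrowed to 3.27 points at a −log10 q of 2 or more and to 3.75 points when gaps of up to 3 kb were joined. In these 2 settings, 15.8% and 15.0% of H3K27me3 peaks were shared in replicate 1. By bases, 46.0% and 48.8% of the DNA under EZH2 was also under H3K27me3, while 7.42% and 6.48% of the DNA under the mark was under EZH2. Shared EZH2 peaks lay inside the mark rather than at its side, with 82.1% and 86.3% of them covered over their whole length. EZH2 peaks without the mark, called separate, were distant from it: the median gap to the nearest kept H3K27me3 peak was 112 and 113 kb, and 5.12% and 5.13% lay within 5 kb. From separate H3K27me3 peaks, the nearest EZH2 peak was 62.1 and 63.3 kb away in the median.

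Overlap rose with width on both sides. Of EZH2 peaks under 500 bp, 11.03% and 11.1% were shared, of those from 2 to 5 kb 81.1% and 88.8%, and of those of at least 5 kb 298 of 298 and 291 of 292. H3K27me3 peaks under 500 bp were shared in 2.52% and 2.72%, those from 5 to 10 kb in 21.9% and 18.1%, those from 20 to 50 kb in 68.6% and 62.6%, and those of at least 50 kb in 89.6% and 78.8% (48 and 85 peaks). A wide peak has more chance to touch another, and the part of this in the rise was not tested. The bases under H3K27me3 were 10.1% and 10.8% of those in EZH2 peaks under 500 bp. They were 79.8% and 86.9% in EZH2 peaks of 2 to 5 kb. Fold enrichment, the ratio of fragments to local background that MACS2 gives each peak, separated the classes mainly at its upper end. The median was 5.32 in shared and 5.19 in separate EZH2 peaks of replicate 1, and 4.73 and 4.52 in replicate 2. Among the 221 EZH2 peaks of replicate 1 with a fold of at least 10, however, 68.3% were shared, against 20.1% of the 1255 peaks under 4. In replicate 2 the shares were 87.1% of 62 peaks and 19.7% of 3539. Peaks with a fold of at least 10 were also wide, with medians of 4552 and 8117.5 bp in the 2 replicates. Those under 4 had medians of 354 and 373 bp. The part of width in the rise with fold was not tested. Shared H3K27me3 peaks had a higher fold than separate ones in both replicates, with medians of 4.81 against 3.66 and 4.82 against 3.63.

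**Figure D2:**
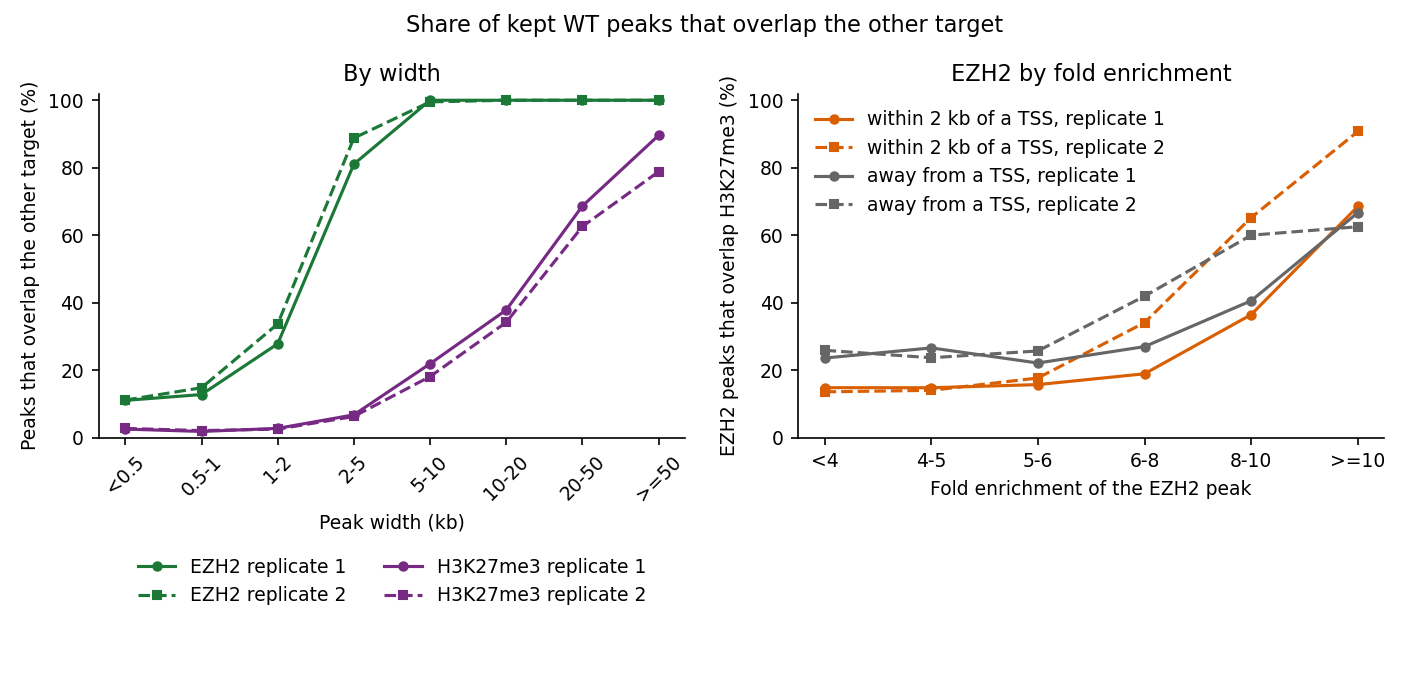
Percent of kept WT peaks that overlap the other target, by peak width in kb for both targets (left) and, for EZH2, by fold enrichment, apart for peaks within 2 kb of a TSS and away from one (right). Solid lines are replicate 1 and dashed lines replicate 2. EZH2 peaks of 5 kb or more are shared almost without exception, and EZH2 peaks of fold 10 or more are shared in 62.5% to 90.7%.

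Place split the 2 targets in opposite ways. EZH2 peaks at a TSS were shared in 18.7% and 18.8%, those in gene bodies in 23.0% and 23.5%, and intergenic ones in 29.3% and 29.7%. H3K27me3 peaks at a TSS were shared in 32.2% and 32.9%, but those in gene bodies in 3.875% and 4.002% and intergenic ones in 2.67% and 2.96%. Within H3K27me3 peaks of at least 5 kb, 56.7% and 52.1% of those that reached a TSS held EZH2, against 15.4% and 13.2% in gene bodies and 11.9% and 10.3% between genes. Most shared H3K27me3 peaks held a single EZH2 peak (2039 of 2515 and 1921 of 2449), 309 and 331 held 2, and 167 and 197 held at least 3, up to 26 and 46. Where an H3K27me3 peak of at least 5 kb held 1 EZH2 peak, the EZH2 midpoint mostly lay nearer to the centre of this domain than to its edge. On a scale from 0 at the centre to 1 at the edge, the median position was 0.269 (n = 1148) and 0.295 (n = 1166). Of these midpoints, 75.5% and 73.5% lay in the inner 50% of the domain. An EZH2 peak that fills much of a domain has a central midpoint by geometry, and the part of this was not tested.

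The DNA under the classes differed in base composition, which the rule did not use. In replicate 1, the median GC content was 60.1% in separate EZH2 peaks, 54.0% in shared EZH2 peaks, 49.2% in shared H3K27me3 peaks and 41.4% in separate H3K27me3 peaks. CpG density, given as observed over expected CpGs (a value that is low in most of the mouse genome and nears 1 in CpG islands), fell in the same order, at 0.723, 0.501, 0.329 and 0.160. In replicate 2 these were 0.728, 0.498, 0.321 and 0.161. The median share of repeats ran the other way in replicate 1, at 4.53%, 9.88%, 17.0% and 20.4%. Among these classes of peaks, the most CpG-rich DNA was thus under EZH2 without the mark, and the mark without EZH2 lay on CpG-poor DNA. Separate EZH2 peaks of replicate 1 were also narrower than shared ones (medians of 547 and 1324 bp) and more often at a TSS (64.7% and 55.0%). Within 500 bp of protein-coding TSS the gap in CpG density was smaller, at 0.770 with EZH2 only and 0.695 with both. The part of width and place was not tested. Over 200 bp at the midpoint of each peak, the order of CpG density in replicate 1 was kept (0.726, 0.498, 0.310 and 0.146). The midpoint of a wide peak need not lie on its CpG island, so this window does not remove the effect of width.

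At protein-coding genes, 9794 of 21938 TSS (44.6%) had a kept EZH2 peak of replicate 1 within 2 kb and 3186 (14.5%) a kept H3K27me3 peak. Both were present at 1634 TSS (7.45%), EZH2 only at 8160 (37.2%), H3K27me3 only at 1552 (7.07%) and neither at 10592 (48.3%). With the peaks of replicate 2 the counts were 1644, 8145, 1575 and 10574, and 21775 TSS (99.3%) fell in the same class. Kept peaks overlap the other replicate by rule, so this likeness was largely fixed in advance and does not measure replication. In the full lists, without the rule, EZH2 only was at 9244 TSS in replicate 1 and 8458 in replicate 2. Neither target was at 9275 and 9873. Of the TSS with EZH2, 16.7% and 16.8% also had the mark, and of those with the mark, 51.3% and 51.1% had EZH2. CpG density within 500 bp of the TSS was 0.695 where both were present, 0.770 with EZH2 only, 0.230 with H3K27me3 only and 0.256 with neither.

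The classes differed in RNA. The median TPM of genes with EZH2 only was 32.2 in WT RNA replicate 1 and 36.8 in replicate 2. For genes with both targets, overlapping each other or not, the median was 0.1 TPM in both libraries. It was 0 in both libraries with H3K27me3 only and also with neither. At least 1 TPM was reached by 93.7% and 94.2% of EZH2-only genes, 27.9% and 28.5% of genes with both, 6.54% and 6.93% of genes with H3K27me3 only and 29.8% and 30.5% of genes with neither. Genes at 0 TPM made up 2.46% and 2.26% of the EZH2-only class and 78.3% of the H3K27me3-only class in both libraries. Genes are not replicates, so no p is given across them. The 2 RNA libraries lay close together next to the distance between the classes. Among TSS with EZH2, those with the mark had little RNA and those without it were mostly active.

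**Figure D3:**
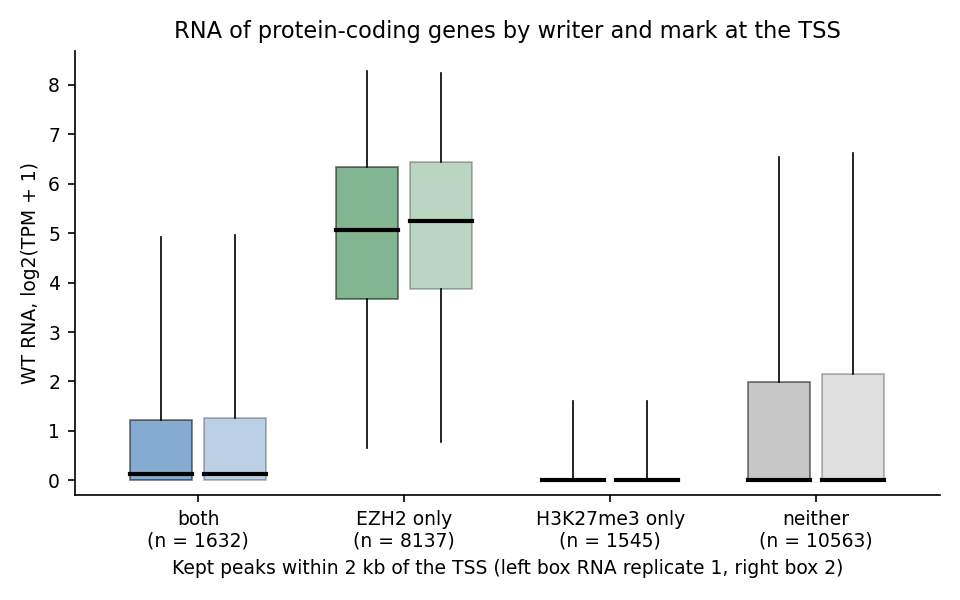
WT RNA of protein-coding genes as log2(TPM + 1) by the kept peaks of replicate 1 within 2 kb of the TSS. Boxes span the 25th to 75th percentile of genes, thick lines are medians and thin lines reach the 5th and 95th percentile, with RNA replicate 1 on the left and 2 on the right of each pair. Genes with EZH2 only lie highest (medians of 32.2 and 36.8 TPM), and the medians of genes with the mark are at most 0.1 TPM with or without EZH2.

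Across the range of RNA, EZH2 and its mark moved in opposite directions. The share of TSS with an EZH2 peak of replicate 1 was 11.99% in genes under 0.1 TPM (n = 8256), 46.0% from 1 to 3 TPM, 73.5% from 10 to 30 TPM and 77.8% from 100 to 300 TPM (n = 1655). H3K27me3 fell from 25.3% to 18.5%, 3.68% and 1.09% over the same steps. CpG content and RNA were then crossed, with a TSS called CpG-rich at a GC content of at least 50% and a CpG density of at least 0.6. CpG-rich TSS of expressed genes (at least 1 TPM in both libraries, n = 7972) had EZH2 in 83.8% and the mark in 4.59%. CpG-rich TSS of silent genes (under 1 TPM in both, n = 1580) had EZH2 in 63.5%, the mark in 55.4% and both in 46.8%. At the other TSS, expressed genes (n = 3195) had EZH2 in 42.1% and the mark in 5.01%, and silent genes (n = 8678) had EZH2 in 6.71% and the mark in 19.6%. Of these 4 groups, EZH2 was most frequent at CpG-rich expressed genes and the mark at CpG-rich silent ones.

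Promoter motifs followed these classes. Among 14730 protein-coding genes with a 300-base RefSeq promoter (250 bases before the start and 50 after), the median number of CpGs was 22 with both targets, 24 with EZH2 only, 5 with H3K27me3 only and 5 with neither, against 7 in all 32851 promoters of the table. Motifs were searched on both strands, and none contains another, though all but TATAAA and CCAAT contain a CpG. The GC box GGGCGG, bound by SP and KLF factors, was in 73.6% of EZH2-only promoters, 68.2% of those with both, 27.1% of those with H3K27me3 only and 35.7% of all promoters. CCGGAAG, an ETS factor motif, was in 21.4%, 5.96%, 3.05% and 8.86%, and ATGGCGGC, a YY1 motif, in 6.08%, 1.78%, 0.211% and 2.24%. The NRF1 motif was in 2.69%, 1.07%, 0.105% and 0.971%. The promoters with both targets were thus near the EZH2-only promoters in GC boxes but not in ETS and YY1 motifs. TATAAA ran the other way, at 5.27% with EZH2 only, 7.92% with both, 18.2% with H3K27me3 only and 13.6% of all promoters. The E-box CACGTG was in 10.3%, 8.72%, 6.11% and 7.15%, and CCAAT in 41.8%, 33.5%, 37.8% and 37.4%. A match in this window is a description of the letters and not a bound site.

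Genes were then followed by function, with lists chosen when earlier results of these data were known. The highest RNA among EZH2-only genes was that of S100a6 (11496 and 7658 TPM), Lgals1, Vim, Fth1, Hsp90ab1 and Rplp1, which encode a calcium-binding protein, a galectin, an intermediate filament, ferritin, a chaperone and a ribosomal stalk protein. Their EZH2 peaks were narrow, between 448 bp at Rplp1 and 1058 bp at Vim, with folds from 3.96 at Hsp90ab1 to 5.78 at Rplp1. Among genes with both targets, the highest RNA was that of the imprinted gene Gnas (591 and 477 TPM), Atp5k, Uchl1, Ndufb8, Gar1 and Sec13. Atp5k was in this class with the peaks of replicate 1 only. Among genes with H3K27me3 only, it was that of Vbp1 (219.4 and 248.6 TPM), Med10, Cox19, Nfic, Gnl2 and Npdc1, whose H3K27me3 peaks had folds between 3.55 and 5.09. These active genes with the mark within 2 kb were exceptions in their classes, whose medians were near 0 TPM. The H3K27me3 peak held the start site itself at Gnas, Uchl1, Ndufb8 and Cox19. At the others named here it lay to 1 side of the start.

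Developmental regulators carried both writer and mark. Of 156 developmental transcription factor genes, 109 had both (69.9%, against 7.45% of all protein-coding genes), 18 EZH2 only, 10 H3K27me3 only and 19 neither. The median RNA of the list was 0.01 and 0 TPM, against 1.53 and 1.76 TPM for all protein-coding genes. Those with both included Sox2, Lhx1, Gata4 and Gata6, and Sox2 combined an EZH2 peak of 10986 bp, an H3K27me3 peak of 29362 bp and 43.9 and 37.1 TPM. The 18 with EZH2 only were all expressed, from Otx1 (4.05 and 3.57 TPM) to Foxd1 (126 and 85.0 TPM), and held the mesenchymal regulators Twist1 and Twist2. Among the 19 with neither were the most highly expressed of the list, Prrx2 (196 and 169 TPM), Prrx1 (115 and 154 TPM) and Tbx15 (114 and 117 TPM).

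Wnt ligands, secreted signals of development, fell into all 4 classes. Of 19 Wnt genes, 11 had both targets (57.9%, against 7.45% of all protein-coding TSS), 3 EZH2 only (37.2% of all), 2 H3K27me3 only (7.07% of all) and 3 neither. The 3 with EZH2 only, Wnt10b (86.9 and 109 TPM), Wnt5a (12.7 and 13.9 TPM) and Wnt9a (2.50 and 2.79 TPM), were all expressed. Among the 11 with both, Wnt4 (9.37 and 4.85 TPM) and Wnt10a (3.78 and 4.53 TPM) exceeded 1 TPM in both libraries and the others did not exceed 0.32 TPM. Wnt4 had the shortest H3K27me3 peak of these, 203 bp, and Wnt10a the shortest EZH2 peak, 238 bp. Of the 2 with H3K27me3 only, Wnt5b had 4.89 and 4.49 TPM and Wnt8b 0 TPM in both libraries. Wnt7b, at 0.09 and 0 TPM, had an EZH2 peak of 8185 bp and an H3K27me3 peak of 13012 bp.

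At the Hox genes, which set position along the body axis, 26 of 39 had both targets (66.7%, against 7.45% of all protein-coding TSS), 4 EZH2 only, 1 H3K27me3 only and 8 neither. The 4 clusters differed. HoxC (chr15:102921103-103036852) was covered whole by 1 peak in every list, 134.8 and 131.1 kb wide for EZH2 and 250.6 and 289.9 kb for H3K27me3. These were the widest peaks of the 4 lists, and of the 9 Hoxc genes only Hoxc6 had any RNA, 0.11 TPM in replicate 2. HoxD (chr2:74668310-74765142) was covered over 60.9% and 59.7% by EZH2 and 87.8% and 92.3% by the mark, and none of its 9 genes exceeded 0.10 TPM. Hoxd1, at the 3′ end of that cluster, was the 1 Hox gene with H3K27me3 only.

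HoxA, on chromosome 6, was divided. An EZH2 peak of 45.5 and 45.7 kb and H3K27me3 peaks of up to 55.4 and 47.8 kb lay over Hoxa9, Hoxa10, Hoxa11 and Hoxa13, at 4.54, 2.15, 0 and 0 mean TPM. The part from Hoxa2 to Hoxa6 had no H3K27me3 peak within 2 kb of a TSS in either replicate. Within it Hoxa3 and Hoxa5 had short EZH2 peaks of 1660 and 909 bp, with 18.2 and 32.2 mean TPM, and Hoxa2, Hoxa4 and Hoxa6 had neither target. The outermost annotated start of Hoxa3 lies between those of Hoxa6 and Hoxa7. Hoxa7, at the boundary, had both within 2 kb and 39.5 and 29.7 TPM. In HoxB (chr11:96194316-96368256), EZH2 covered 30.04% and 29.2% and the mark 38.2% and 38.1%. Hoxb7, Hoxb8 and Hoxb9 had both targets together with 33.5, 24.0 and 54.9 mean TPM, so these 3 genes had RNA with the mark within 2 kb. Hoxb1 to Hoxb5 had neither, and Hoxb6 had EZH2 only.

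**Figure D4:**
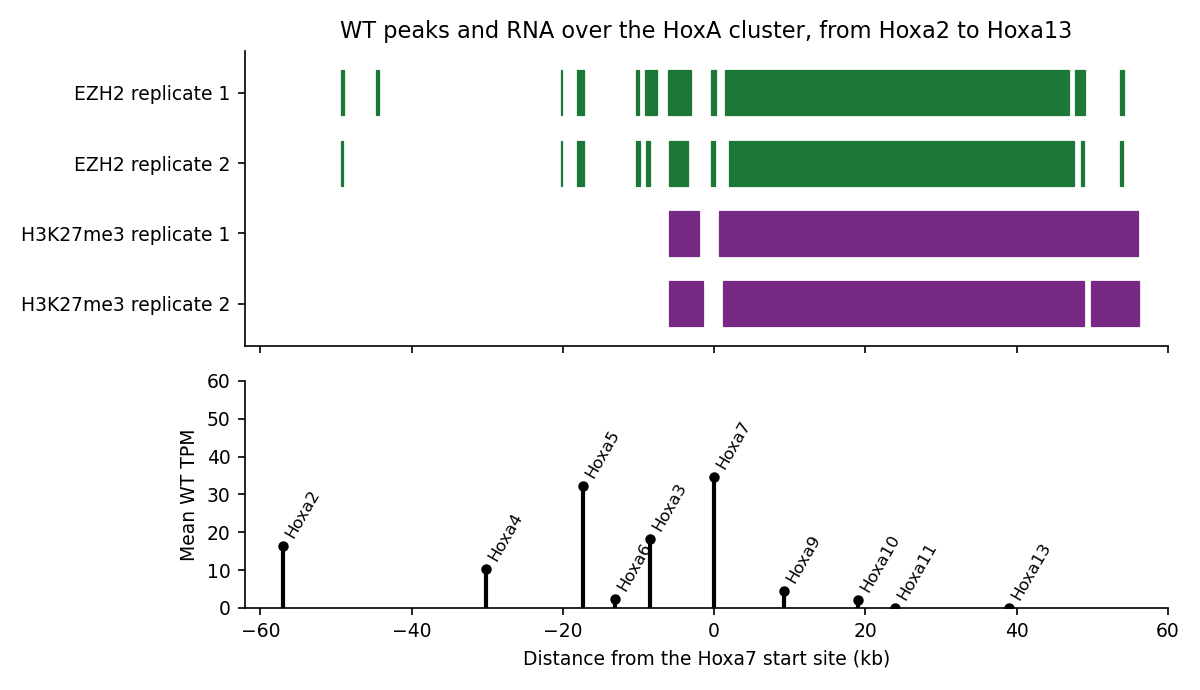
Peaks of the 4 WT lists over the HoxA cluster from Hoxa2 to Hoxa13 (top) and the mean WT TPM at the start of each gene drawn (bottom), against distance from the Hoxa7 start in kb. H3K27me3 is absent over Hoxa2 to Hoxa6, where EZH2 peaks are short, and both targets lie over Hoxa9 to Hoxa13, where RNA is at most 4.54 TPM.

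The widest EZH2 peaks of replicate 1 after HoxC and HoxA lay over Pax6 (33.3 kb), Hoxd3 to Hoxd10 (32.8 kb), Nkx2-3 (28.5 kb), Barhl2 (27.4 kb), Uncx (26.7 kb) and Evx2 with Hoxd11 to Hoxd13 (26.6 kb). All of these are homeobox genes, and each of the 8 widest EZH2 peaks was covered over 96.6% to 100% by H3K27me3. None of the genes under these 8 peaks outside HoxA exceeded 0.59 TPM. The widest H3K27me3 peaks were only partly filled by EZH2. At Pax2 (131.7 kb) EZH2 covered 31.1%, at Lbx1 (94.7 kb) 41.8%, at Six6 (116.7 kb) 19.9%, and at the T-cell receptor subunit gene Cd3e with Mpzl2, Mpzl3, Jaml and Scn2b (125.8 kb) 7.54%. A domain of 119.0 kb on chromosome X without a protein-coding TSS held 1 EZH2 peak over 1.13% of its length. The remaining 2 of the 8 widest, over H2-Q6, H2-Q7 and H2-Q10 (92.4 kb, 11.6%) and over Gm36079 and Gm21188 (89.0 kb, 26.1%), lie in multicopy families, where the placing of reads is uncertain.

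By fold enrichment, the strongest shared EZH2 peaks at a TSS in replicate 1 were at Tchh (fold 17.1), Sox14 (16.9), Lbx1 (16.8), Col2a1 (16.7) and Sox1 (15.96), and were 6463 to 24716 bp wide. The strongest separate ones were at Mdm1 (13.8), Glcci1 (13.0), Msrb1 (12.6), Btrc (12.4) and Entpd7 (12.3), and were 460 to 1016 bp wide. The genes of the first group had at most 1.21 TPM in either RNA library, and those of the second had between 2.08 and 75.7 TPM. The strongest peaks of both classes thus differed in width and in RNA.

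Most genes of the Polycomb system itself had EZH2 without the mark, as did most expressed genes. Of 12 PRC2 subunit genes, 9 had EZH2 only and 3 (Ezh1, Aebp2 and Phf19) neither, with a median RNA of 72.6 and 88.7 TPM. The 75% with EZH2 was above the 44.6% of all TSS but close to the 77.1% of all genes from 30 to 100 TPM. The Ezh2 gene had 204 and 177 TPM and an EZH2 peak of 1335 bp. Of 18 PRC1 subunit genes, 14 had EZH2 only, 2 both (Phc2 and Cbx8) and 2 neither, and Bmi1 had the highest fold of the list, 10.9 over 3731 bp, with 71.2 and 92.4 TPM. The demethylase genes Kdm6a and Kdm6b had EZH2 only. Uty, the homolog on the Y chromosome, had neither, in a line that the study describes as female. At the Ink4 locus, a classical target of PRC2 in fibroblasts, Cdkn2a (1405 and 894 TPM) and Cdkn2b (168 and 141 TPM) had EZH2 only, in peaks of 540 and 517 bp, and 1 of the 2 kept this class at a −log10 q of 2 or more.

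Housekeeping genes were read against the 37.2% of all TSS with EZH2 only and against genes of like RNA. Of 78 cytosolic ribosomal protein genes, 51 had EZH2 only, 1 both and 26 neither, with a median of 159 and 144 TPM. The 66.7% of them with EZH2 lay below the 77.8% of all genes from 100 to 300 TPM. Of 27 genes of RNA polymerase II and the general transcription factors, 19 had EZH2 only, 1 both and 7 neither, with a median of 72.8 and 76.7 TPM, and the 74.1% of them with EZH2 stood beside 77.1% of all genes from 30 to 100 TPM. Of the 18 fibroblast markers, 8 had EZH2, a share of 44.4% that was close to the 44.6% of all TSS, and 10 had neither, among them Col1a1, Col1a2 and S100a4. Of the 25 markers of other cell types, 6 had both targets (24%, against 7.45% of all TSS). Another 3 had H3K27me3 only and 16 neither (7.07% and 48.3% of all TSS). Of 1135 olfactory receptor genes, which are CpG-poor and silent outside the olfactory epithelium, 180 had H3K27me3 only, 1 had both and 954 neither. The 15.9% with H3K27me3 only was above the 7.07% of all TSS but near the 15.0% of silent genes without a CpG-rich TSS. The 180 fell to 95 when peaks needed a −log10 q of 2 or more. High RNA did not require EZH2: Rpl8 (5188 and 3619 TPM) and S100a4 (4166 and 4164 TPM) had no peak of either target within 2 kb.

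Along the chromosomes both targets were densest on chromosome 19, where EZH2 covered 1.25% and 1.16% of the bases and H3K27me3 9.02% and 10.2%. Chromosome X stood apart for the writer. It held 1.70% and 1.73% of EZH2 peaks, below the lowest autosome (2.65% and 2.66%), and EZH2 covered 0.130% and 0.108% of it against an autosomal median of 0.690% and 0.615%. An EZH2 peak was present at 21.8% and 21.7% of X-linked protein-coding TSS and at 45.7% of the others, Y included, in both replicates. For the mark the X was within the autosomal range, with 6.85% and 6.86% of peaks (autosomes 2.78% to 8.05% in replicate 1 and 2.87% to 8.11% in replicate 2) and 2.87% and 3.29% of its bases covered. H3K27me3 was present at 12.2% and 13.2% of X-linked TSS and 14.6% and 14.7% of the others. H3K27me3 peaks on the X overlapped EZH2 in 2.50% and 2.67%, below the lowest autosome (chromosome 16, with 4.70% and 5.01%). The X held 4.84% of H3K27me3 peaks when a −log10 q of 2 or more was required. Xist had 434 and 468 TPM. Copy number of the X in this line and the number of alleles behind each peak were not measured.

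**Figure D5:**
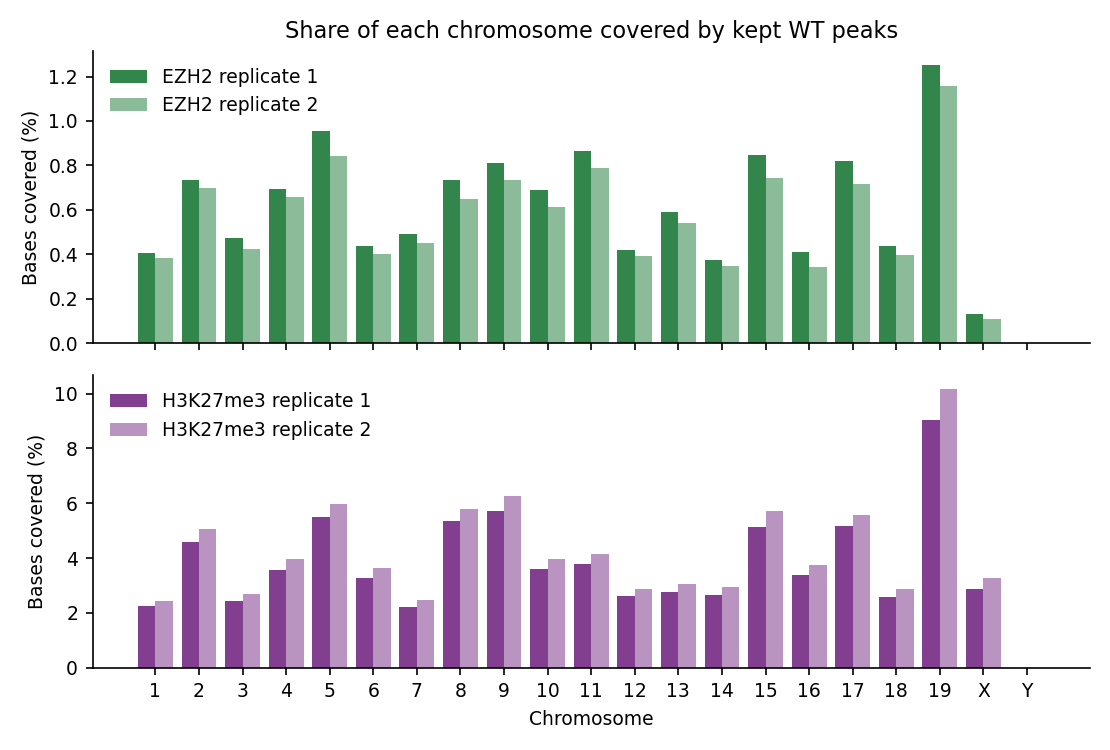
Percent of the bases of each chromosome covered by kept EZH2 (top) and H3K27me3 (bottom) peaks, WT, replicate 1 dark and replicate 2 light. Chromosome 19 is highest for both targets, and the X lies below every autosome for EZH2 (0.130% and 0.108%) but not for H3K27me3 (2.87% and 3.29%). The Y, in a line described as female, held 1 kept EZH2 peak in each replicate, too short to be seen here, and 0 kept H3K27me3 peaks.

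WT ATRX peaks, which the rule did not use, overlapped separate EZH2 peaks more often than shared ones. Of the separate EZH2 peaks of replicate 1, 35.9% (4405) overlapped an ATRX peak of replicate 1 and 21.5% (2635) one of replicate 2. Of the shared EZH2 peaks, 1.51% (50) and 0.241% (8) did, and of separate H3K27me3 peaks 0.0536% (14) and 0.0115% (3). Of the 9093 and 4742 ATRX peaks, 49.4% and 55.5% lay on a kept EZH2 peak, 48.8% and 55.4% on a separate one, and 0.704% and 0.232% on a kept H3K27me3 peak. Within the separate class, the overlap with the 2 ATRX lists was 27.7% and 13.7% at TSS, 47.2% and 33.2% in gene bodies and 56.7% and 39.6% between genes. The 2 ATRX libraries thus differed in number but gave the same order of the classes.

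Lists of the other genotypes gave the same measure in libraries that did not define the classes. In ATRXΔRBR cells, H3K27me3 peaks of replicates 1 and 2 were found on 70.0% and 67.7% of the WT shared EZH2 peaks and on 2.18% and 2.02% of the separate ones. The EZH2 lists of ATRXΔRBR overlapped 63.0% and 75.04% of shared and 85.8% and 63.9% of separate peaks, so which class was retained more depended on the library. In ATRX KD cells, H3K27me3 peaks lay on 41.6% and 39.4% of shared and 0.570% and 0.407% of separate EZH2 peaks, and EZH2 peaks on 33.1% and 37.3% and on 26.9% and 35.8%. In these 4 H3K27me3 libraries, at most 2.18% of the WT separate EZH2 peaks carried the mark. Within each genotype, EZH2 peaks kept by the same rule were shared with H3K27me3 in 20.1% and 18.8% in ATRXΔRBR and in 13.5% and 13.7% in ATRX KD, whose lists were shorter (4089 and 4083 EZH2 peaks, 3139 and 3142 H3K27me3 peaks). H3K27me3 peaks were shared in 5.59% and 5.17% and in 17.5% and 17.9%. The number of peaks in a list moves with these shares, and its part in them was not tested.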

How the data were processed

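CUT&RUN and poly(A) RNA-Seq libraries were read from the deposited files. The authors aligned CUT&RUN reads to mm10 with Bowtie2 and called broad peaks in each sample with MACS2 at a broad cutoff of 0.1. Whether a control library entered the calling is not given in the sources used here. Peaks carry, as deposited, fold enrichment over local background and −log10 p and −log10 q. The authors aligned RNA reads with STAR and quantified genes with RSEM, and deposited estimated counts and TPM.

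Peaks on 21 chromosomes were kept when at least 1 bp overlapped the other replicate, and were called shared when at least 1 bp overlapped a kept peak of the other target with the same replicate number. GENCODE M21 gave 55413 genes, of which 21938 were protein-coding and 61 of these had no RNA row. A TSS window was 2 kb to either side. Exact permutation tests were two-sided over libraries, and a gene counted as expressed at 1 TPM. Promoters were taken from RefSeq (GRCm38). The interval code was tested on simulated data. Python 3.11.15, numpy 2.4.6, pandas 2.3.3, matplotlib 3.10.9, pysam 0.24.0 and samtools 1.23.1 were used.

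The members and lists were chosen with earlier results of these data known. Genes were named as the 6 with the most RNA in each class with a peak, the 4 with the most RNA of each list, those under the 8 widest peaks of either target and the 5 EZH2 peaks of highest fold at a TSS in each class. The Hox, PRC2, demethylase and Ink4 genes were described as groups, and other list members were named after their values were seen. Some list members are not reported by name here. Alternatives covered the overlap rule, −log10 q, joined gaps, the TSS window, coordinates and single replicates.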

Additional observations from a re-analysis of the deposited data

How the results depend on the processing

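Across the alternatives, 81 of 131 values of 31 results were counted as unchanged, 50 moved and 0 changed sign. Unchanged values stayed within the spread between replicates or, for counts, kept their size. For tests the size of a difference was not compared. At a −log10 q of 2 or more, a width difference of 4071 bp against 1361 bp thus counted as unchanged. So did an overlap difference of 3.27 against 12.2 points. Percentages, counts, covered bases and TPM medians cannot be negative, so the 0 changes of sign bear only on differences. Of 288 gene list counts, 263 stayed within 1.5 times. The cause of each move was not tested. The percentage of EZH2 peaks shared with H3K27me3 was 20.8 with 50% of the peak overlapped by the other replicate, 19.6 at a −log10 q of 2 or more, 19.2 with gaps of up to 3 kb joined, 21.5 in replicate 2 coordinates, 21.6 over segments covered in both replicates, 20.1 with at least 50% of the peak overlapped by the other target, 22.0 within 1 kb, and 21.6 to 23.1 from single replicates. The percentage of H3K27me3 peaks shared with EZH2 was 15.8 at the −log10 q limit, 15.0 joined, 9.54 in replicate 2, 7.81 over segments, 1.78 with at least 50% overlap, 9.47 within 1 kb, and 7.66 to 9.42 from single replicates. EZH2 covered 13.6 Mb with 50% overlap between replicates, 13.8 at the −log10 q limit, 19.5 joined, 14.4 in replicate 2, 12.5 over segments and 15.2 to 18.1 from single replicates. H3K27me3 covered 73.5, 126, 108 and 86.9 Mb at the −log10 q limit, joined, in replicate 2 and over segments, and 103 to 118 Mb from single replicates. The median of genes with both targets was 0.08 TPM with a TSS window of 1 kb, 0.075 at the −log10 q limit and 1.11 among genes above 0 TPM in both libraries, where H3K27me3-only genes had 0.64. The distance of EZH2-only from both-target genes was 7.43 on the log2 scale with a pseudocount of 0.1, against 5.01 with 1. In base composition, shared minus separate EZH2 peaks differed by -6.50 GC points and -0.229 in CpG density over the middle 200 bp, by -6.40 and -0.230 in replicate 2, and by -5.96 and -0.212 at the −log10 q limit. For H3K27me3 the GC differences were 9 points over the middle 200 bp, 7.70 in replicate 2 and 7.34 at the −log10 q limit, and the CpG difference in replicate 2 was 0.160. The X held 1.73%, 1.66% and 1.76% of EZH2 peaks and 6.86%, 4.84% and 6.73% of H3K27me3 peaks in replicate 2, at the −log10 q limit and joined. ATRX KD H3K27me3 peaks lay on 38.7% of shared EZH2 peaks in replicate 2 coordinates, against 40.5%.

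With same-numbered libraries as pairs (replicate block), the differences stayed at 1361 bp in width, 42.6 points in TSS share and 12.2 points in overlap, each with an exact permutation p of 0.5, the smallest that 2 pairs allow. The labels do not say that equal numbers mark shared cultures. From single replicates the differences were 747 to 801 bp, 35.1 to 40.5 points and 12.2 to 15.4 points. With 2 libraries per target, no test could reach 0.05. Read depth could not be read from the peak lists, so the depth at which EZH2 or the mark would have been missed is not known.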
